A study of Mus musculus with 9 samples.

Results

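Germline and meiosis genes are genes whose known work lies in germ cells: making PIWI-interacting RNAs (piRNAs), entering meiosis, pairing and recombining chromosomes, or replacing a general factor in the male germline. The 34 genes described here were taken as a list of named genes, drawn up with earlier results of these data known, and all 34 were found among the 38293 genes of the count table. Polyadenylated RNA of a mouse embryonic stem cell line, E14 (strain 129/Ola), was sequenced as 50 bp single-end reads in 3 culture states, with 3 libraries labelled as biological replicates in each. The mESC-2i state is naive pluripotency, held in N2B27 medium with 1 µM PD0325901 (a MEK inhibitor), 3 µM CHIR99021 (a GSK3 inhibitor) and 10 ng/mL leukaemia inhibitory factor (LIF). The mESC-ser state was kept on gelatin in medium with 15% foetal bovine serum and 10 ng/mL LIF. EpiLC, epiblast-like cells, were made from naive cells on fibronectin with 20 ng/mL activin A, 12 ng/mL bFGF and 1% KSR. All libraries come from this single line, so the spread between replicates does not cover other lines. The comparisons between states ask how the RNA of these genes differs between naive, serum-grown and epiblast-like cells.

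In the embryo, germline genes are shut off around implantation, when DNA methylation rises across the genome, and primordial germ cells later lose that methylation and switch the genes on. Their promoters tend to be rich in CpG, and 2 systems are known to hold them silent in somatic and pluripotent cells. One is DNA methylation, laid down by DNMT3A and DNMT3B with DNMT3L as a partner and kept by DNMT1 and UHRF1. The other is the Polycomb complex PRC1.6, in which MGA with MAX binds an E-box and E2F6 with its partner DP1 binds an E2F site. Neither DNA methylation nor the binding of any factor was measured in these libraries. In bulk RNA, fewer cells with a transcript and less of it per cell cannot be told apart.

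Total counts ranged from 7187576 to 16829549 per library, so 3 counts correspond to 0.172 to 0.403 CPM, counts relative to the library total scaled to a common size. Levels below are CPM scaled by TMM over all 9 libraries, and levels of different genes are compared only as RPKM, which also divides by exonic length. The labels of the states held in Fgf5 and Klf4, which were picked from 9 state markers. Others differed little between mESC-ser and mESC-2i, with log2 fold changes of 0.21 for Zfp42, 0.06 for Sox2 and -0.20 for Pou5f1. Fgf5, a marker of the formative epiblast, stood at 0.0816 ± 0.0834 CPM (SD, n = 3) in mESC-2i, 3.90 ± 0.700 in the mESC-ser libraries and 122.0 ± 6.01 in EpiLC. Klf4, a naive factor, stood at 366.9 ± 20.9, 151.9 ± 17.9 and 1.26 ± 0.614 CPM in that order. Replicates of a group differed by more than sampling noise in every pair, and most between replicates 2 and 3 of mESC-2i (chi-square per degree of freedom of 28.3). Replicate 3 of mESC-2i was the highest of its group in 19 of the 34 genes. The share over all genes was not counted, so this is not read as a trait of these genes.

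Promoter sequence is shown first. The list was described from the start as holding many genes silenced by promoter methylation. The CpG and motif shares below are thus not independent of how the genes were chosen. Windows of 300 bases, from 250 before to 50 after the RefSeq transcription start (GRCm38.p6), were found for 29 of the 34 genes. The E-box, CACGTG, which reads the same on both strands, lay in 14 of the 29 windows (48.3%), against 7.24% of the 27025 genes with a window. The E2F-type motif, TCCCGC on either strand, lay in 14 (48.3%) against 20.1% of all, and 21 of the 29 windows (72.4%) held at least 1 of the motifs (matches of both can overlap by 1 base), against 25.2%. The windows were also rich in CpG, with a median observed/expected ratio of 0.74 against 0.39 in all genes, and the ratio was over 0.6 in 24 of 29 (82.8%) against 36.1%. Among windows over that ratio, the E-box lay in 54.2% of those of the germline genes and in 11.4% of all 9767. The E2F-type motif lay in 54.2% and 43.1% of them. These shares are descriptions with no test, and a match shows only that the letters are present.

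**Figure D1:**
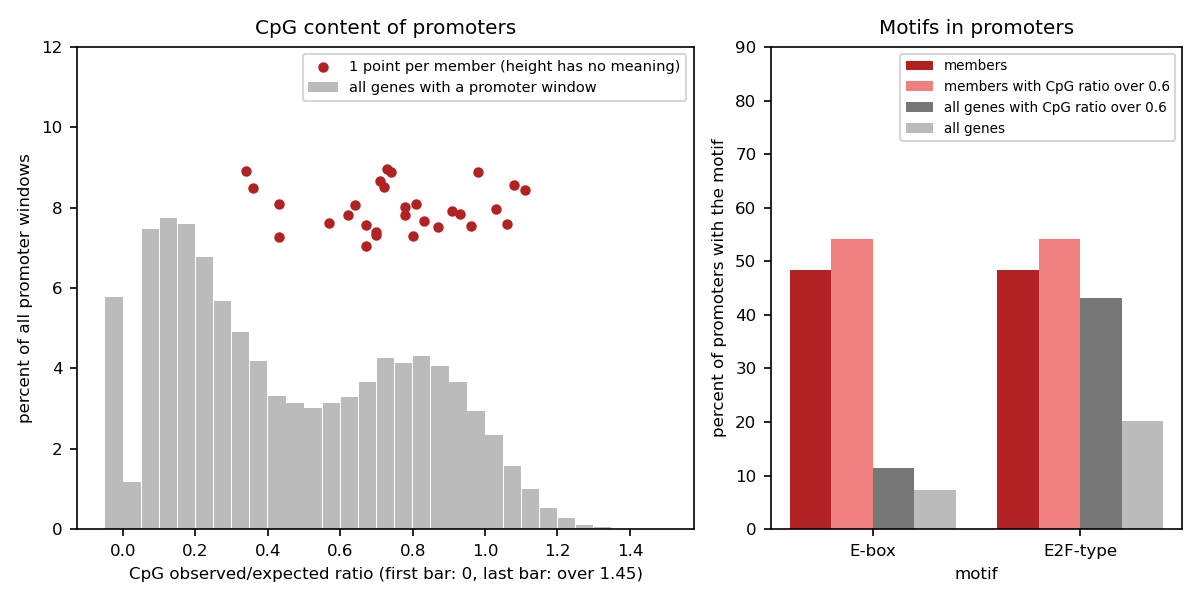
CpG content and motifs of 300-base promoter windows. The left panel shows the CpG observed/expected ratio (x axis, no unit) of 29 germline and meiosis genes as points above a histogram of all 27025 genes (y axis, percent of windows), and the right panel shows the percent of windows with each motif. The points lie mostly over the right-hand hump of the histogram, and the E-box bars of the germline genes (48.3% and 54.2%) stand far above those of all genes (7.24% and 11.4%).

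Sequences of 6 windows follow, read 5′ to 3′ on the gene's strand, with E-box and E2F-type matches in capitals. Ddx4, Mael, Sycp1 and Slc25a31 held both motifs and had more RNA in mESC-ser and in EpiLC than in mESC-2i. Fkbp6 held 2 E-boxes and Dazl neither motif, and both had most RNA in mESC-2i. The 6 were chosen after values were seen, and other genes did not follow this pairing. Hormad1 and Stag3 held both motifs and were not called against mESC-2i. Tdrd12, Syce1 and Sycp2 held neither and were higher in mESC-ser and EpiLC than in mESC-2i.

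Ddx4 (chr13:112652261-112652560, minus strand): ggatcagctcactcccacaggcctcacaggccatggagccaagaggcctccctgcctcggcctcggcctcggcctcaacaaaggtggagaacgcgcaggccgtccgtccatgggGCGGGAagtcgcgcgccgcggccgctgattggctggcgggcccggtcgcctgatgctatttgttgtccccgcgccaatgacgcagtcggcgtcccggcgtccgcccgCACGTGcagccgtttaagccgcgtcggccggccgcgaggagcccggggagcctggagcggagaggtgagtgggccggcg

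Mael (chr1:166238695-166238994, minus strand): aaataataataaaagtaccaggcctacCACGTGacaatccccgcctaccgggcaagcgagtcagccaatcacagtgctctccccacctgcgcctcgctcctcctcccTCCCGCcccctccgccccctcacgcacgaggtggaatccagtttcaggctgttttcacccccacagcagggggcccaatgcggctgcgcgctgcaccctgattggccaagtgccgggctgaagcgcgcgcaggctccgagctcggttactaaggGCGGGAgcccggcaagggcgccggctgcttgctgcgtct

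Sycp1 (chr3:102936051-102936350, minus strand): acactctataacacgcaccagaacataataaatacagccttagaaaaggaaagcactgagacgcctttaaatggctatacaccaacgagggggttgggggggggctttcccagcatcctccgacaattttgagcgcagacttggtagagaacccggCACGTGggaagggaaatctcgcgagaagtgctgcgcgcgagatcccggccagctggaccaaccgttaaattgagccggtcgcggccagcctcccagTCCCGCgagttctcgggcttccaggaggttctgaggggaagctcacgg

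Slc25a31 (chr3:40708621-40708920, plus strand): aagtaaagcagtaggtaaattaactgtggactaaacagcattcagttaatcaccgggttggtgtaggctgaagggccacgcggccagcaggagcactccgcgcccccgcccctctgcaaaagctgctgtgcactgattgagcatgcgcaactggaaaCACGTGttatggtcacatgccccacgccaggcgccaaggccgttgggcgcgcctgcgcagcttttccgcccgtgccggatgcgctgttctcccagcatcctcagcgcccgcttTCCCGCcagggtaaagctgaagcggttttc

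Fkbp6 (chr5:135349995-135350294, minus strand): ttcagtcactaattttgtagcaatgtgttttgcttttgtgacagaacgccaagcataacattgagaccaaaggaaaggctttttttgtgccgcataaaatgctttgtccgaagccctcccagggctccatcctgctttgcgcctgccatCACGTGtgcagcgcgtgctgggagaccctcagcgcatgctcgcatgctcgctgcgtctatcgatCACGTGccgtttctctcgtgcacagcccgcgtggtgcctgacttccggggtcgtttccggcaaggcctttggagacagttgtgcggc

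Dazl (chr17:50293571-50293870, minus strand): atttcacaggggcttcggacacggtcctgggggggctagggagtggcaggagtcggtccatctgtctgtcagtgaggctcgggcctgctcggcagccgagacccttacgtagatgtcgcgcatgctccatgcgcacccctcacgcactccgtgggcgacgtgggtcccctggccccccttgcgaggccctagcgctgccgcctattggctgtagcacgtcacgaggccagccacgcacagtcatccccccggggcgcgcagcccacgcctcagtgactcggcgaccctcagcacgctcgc

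The first base of the E-box lay at position -29 from the start in Ddx4, -223 in Mael, -94 in Sycp1 and -93 in Slc25a31, and at -101 and -37 in Fkbp6. Of the genes with a window, 8 of 14 that were higher in mESC-ser than in mESC-2i held an E-box, as did 4 of 8 that were lower. The E2F-type motif lay in 8 of 14 and in 2 of 8, and the median CpG ratio was 0.755 and 0.76. For EpiLC against mESC-2i, the E-box lay in 7 of 15 that were higher and 3 of 7 that were lower, and the E2F-type motif in 9 of 15 and 1 of 7. These counts are descriptions with no test.

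RNA of most of these genes was present in all 3 states, and the states differed in which genes led. By length, 19 genes were over 1 RPKM on average in mESC-2i, 25 in serum and 23 in EpiLC, with medians of 1.19, 2.29 and 1.93 RPKM. Rpl10l (83.7 RPKM), Fkbp6 (34.3) and Dazl (25.1) led in mESC-2i. Syce2 (121.0 RPKM), Rpl10l (74.8), Sycp3 (28.8) and Mael (23.1) led in EpiLC. In mESC-ser no gene passed 16.4 RPKM, the level of Rpl10l there, and Syce2 (15.9) and Syce1 (13.9) came next. The summed CPM of the 34 genes was 501 to 530 in mESC-2i, 381 to 419 in mESC-ser and 671 to 691 in EpiLC, so mESC-ser had the lowest sum although 12 of the 32 genes tested in at least 1 comparison (37.5%, against 35.4% of all 16177 such genes) had their highest mean there. In EpiLC, Syce2 alone made up 35.0% of the sum.

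**Figure D2:**
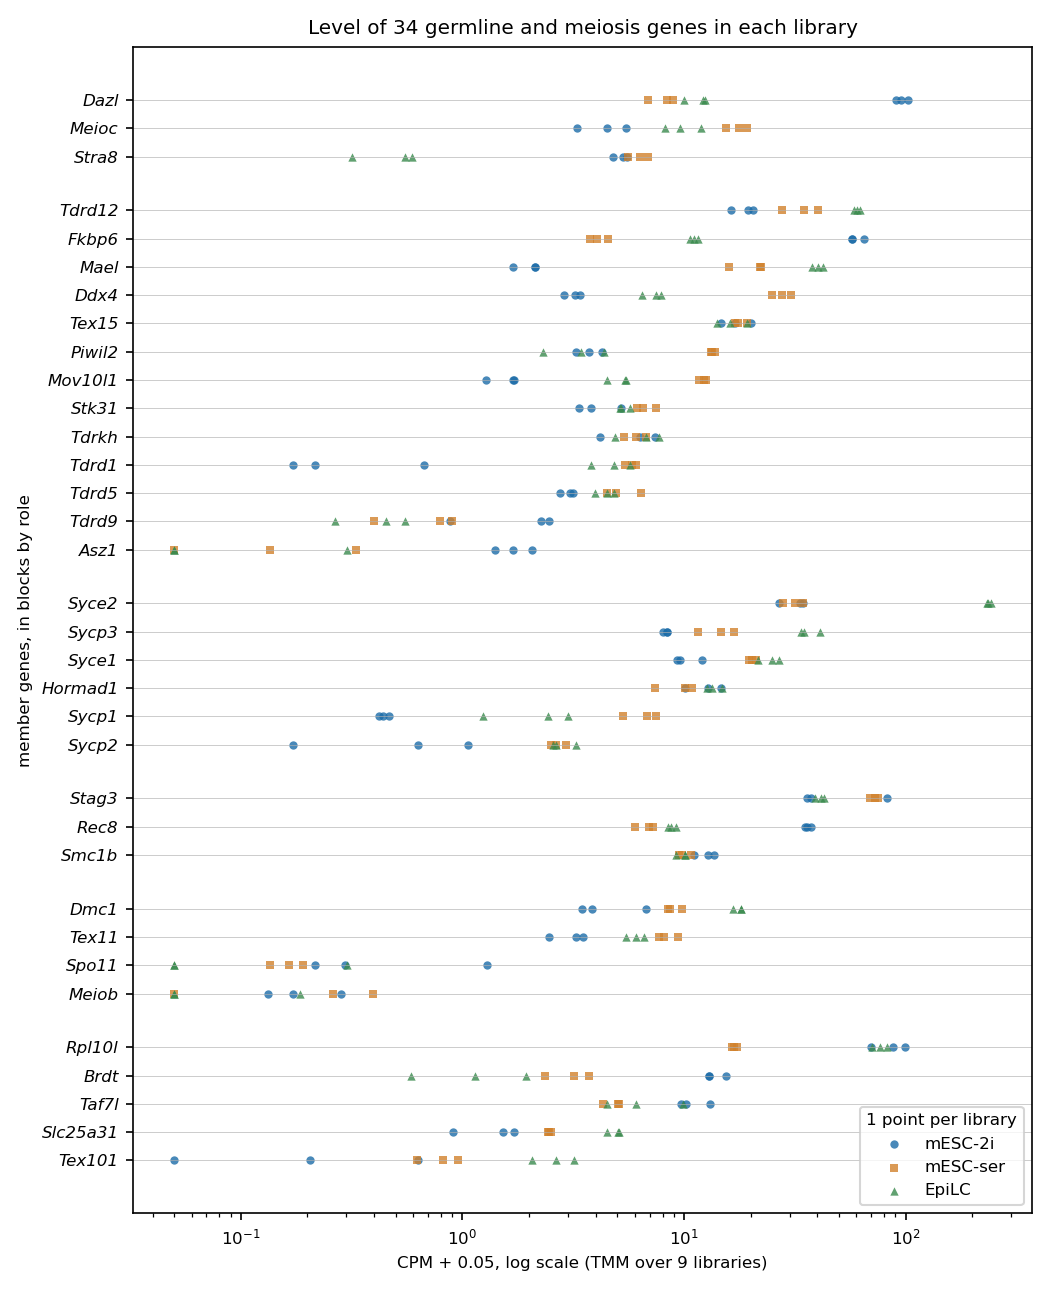
Level of each of the 34 genes in each of the 9 libraries (x axis, CPM + 0.05 on a log scale), in blocks by role. Each point is 1 library of mESC-2i, mESC-ser or EpiLC, and for Ddx4, Mael, Dazl, Fkbp6 and Rpl10l the mESC-ser points stand clear of the mESC-2i points, while Syce2 is set apart only in EpiLC (233.8 to 243.1 CPM).

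Genes were tested with edgeR on the 6 libraries of each pair and called at an adjusted p under 0.05 with a log2 fold change over 0.5 in size. A gene near the floor in 1 state was tested only through the other, so only that direction could be called. Between mESC-ser and mESC-2i, 31 of the 34 genes had enough counts to be tested, of which 16 rose and 8 fell in mESC-ser (of all genes tested, 25.9% were higher and 30.3% lower). Between EpiLC and mESC-2i, 16 of 31 rose and 7 fell in EpiLC (32.0% and 37.8% of all). Between EpiLC and mESC-ser, 12 of 30 were higher and 8 lower in EpiLC (35.5% and 37.8% of all). The median log2 fold change of the tested genes was 0.64, 0.54 and 0.18 in the 3 comparisons, beside -0.04, -0.11 and -0.07 for all genes. Scaling by total counts in place of TMM moved the median of all genes in the EpiLC comparisons to -0.45 and -0.41. A change of scaling moves every gene alike. The median of the germline genes less that of all genes was 0.65 against mESC-2i (0.38 without a filter on low counts, 0.91 with length and GC correction) and 0.24 against mESC-ser (0.11 with length correction, 0.36 with length and GC correction). The split between higher and lower calls was 9 and 11 in EpiLC against mESC-ser under total counts, where it was 12 and 8 under TMM. The first 2 comparisons share the mESC-2i libraries, so their values are set side by side below and not counted as separate support.

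**Figure D3:**
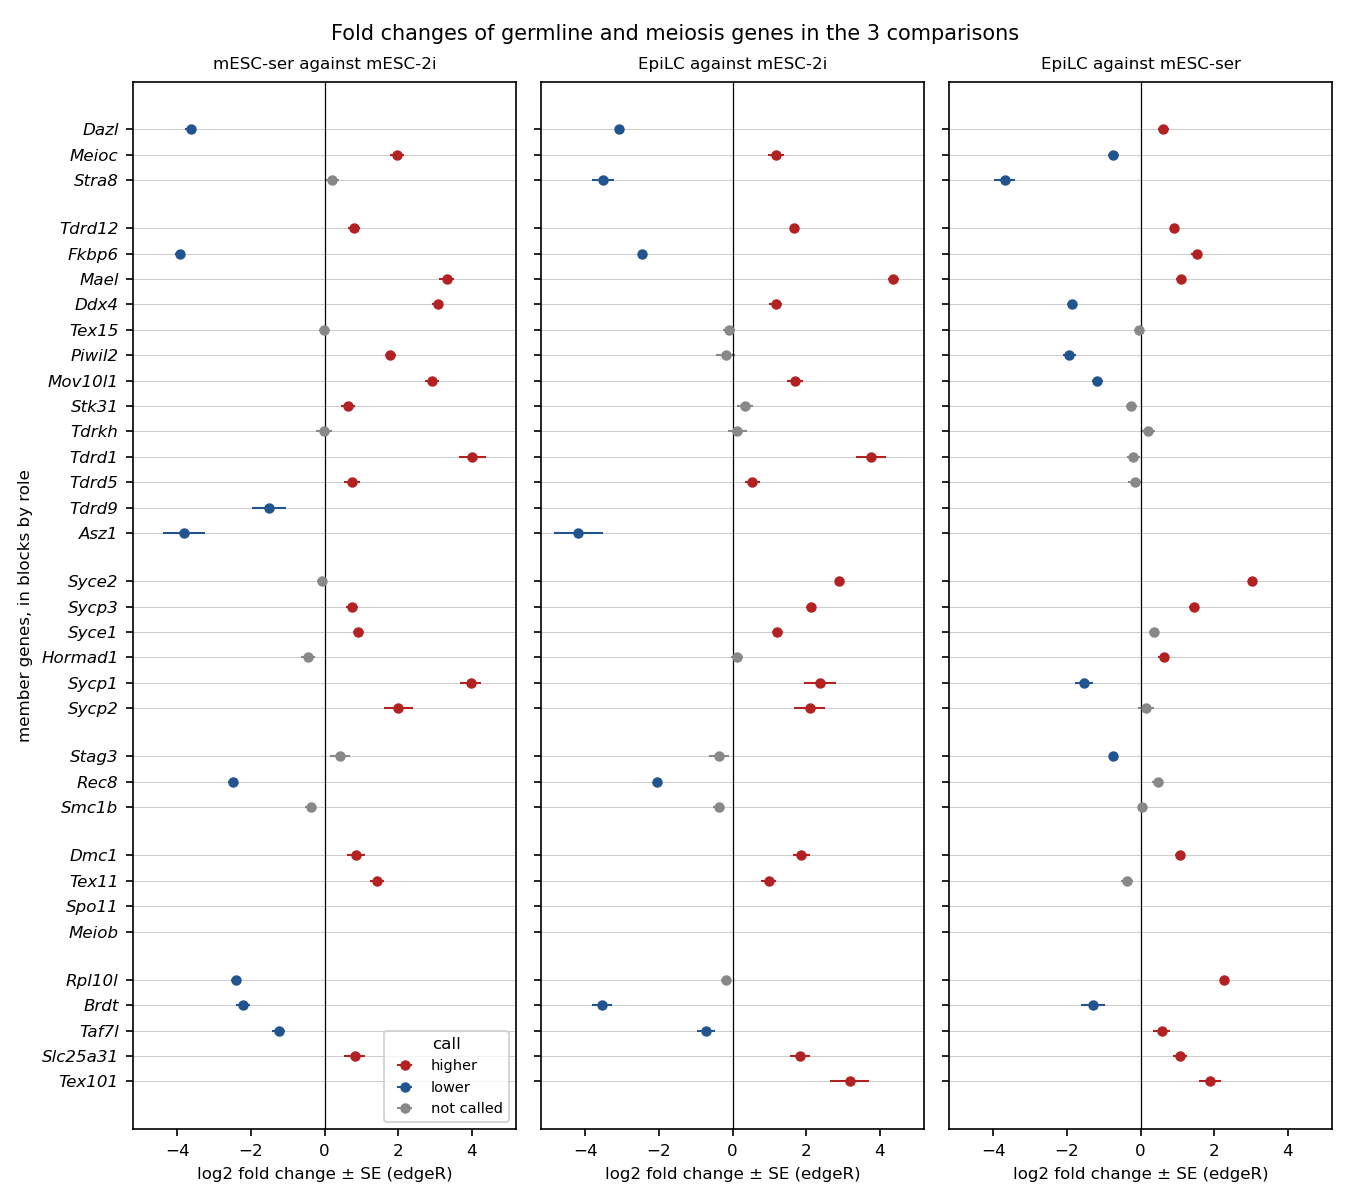
Log2 fold change of each gene with its standard error (x axis; edgeR) in the 3 comparisons, with red for genes called higher, blue for genes called lower and grey for genes not called. Genes without a point were not tested, the Asz1 value in EpiLC depends on the fit because EpiLC is at the floor, and of 31, 31 and 30 tested genes 16, 16 and 12 are red.

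The piRNA pathway silences transposons in germ cells, and its proteins gather in a perinuclear granule called nuage. Of 13 piRNA and nuage genes, 8 rose and 3 fell in mESC-ser against mESC-2i (61.5% and 23.1%, beside 25.9% and 30.3% of all genes). Against mESC-2i, 6 rose and 2 fell in EpiLC among 12 tested (50.0% and 16.7%, beside 32.0% and 37.8%). Compared with mESC-ser, 3 were higher and 3 lower among 11 (27.3% each, beside 35.5% and 37.8%). Against mESC-2i, Tdrd1 passed the filter through the other states only, and Asz1 and Tdrd9 through mESC-2i only. Each of them could be called in a single direction. Ddx4, the VASA helicase that marks germ cells, stood at 2.82, 3.17 and 3.35 CPM in the mESC-2i libraries. It stood at 27.7, 30.3 and 24.9 CPM in mESC-ser and at 7.79, 6.40 and 7.41 in EpiLC. No groups overlapped, and Ddx4 was highest in mESC-ser, with a log2 fold change of 3.07 ± 0.15 (SE; adjusted p = 1.06e-07) against mESC-2i. EpiLC held an intermediate level, 1.17 ± 0.18 above mESC-2i and 1.86 below mESC-ser on the log2 scale (a log2 fold change of -1.86 ± 0.13, adjusted p = 9.56e-10).

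Mael, the maelstrom protein of nuage, followed another order. Its level was 2.09, 2.09 and 1.64 CPM in mESC-2i, 22.2, 22.0 and 15.9 in the mESC-ser libraries and 40.1, 42.3 and 37.6 in EpiLC. It rose by a log2 fold change of 3.32 ± 0.21 in mESC-ser (adjusted p = 4.66e-07) and of 4.36 ± 0.15 in EpiLC (adjusted p = 4.36e-09), and EpiLC was above mESC-ser by 1.09 ± 0.12. Tdrd12, a Tudor-domain protein of secondary piRNA production, had the same order at smaller steps. It went from 16.3, 19.4 and 20.4 CPM in mESC-2i to 40.4, 34.9 and 27.5 in the mESC-ser libraries and 60.4, 62.3 and 58.2 in EpiLC, and all 3 differences were called.

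Tdrd1, a Tudor-domain scaffold for PIWI proteins, was close to undetected in mESC-2i, at 0.123, 0.167 and 0.624 CPM. It stood at 6.02, 5.35 and 5.80 CPM in the mESC-ser libraries and 5.64, 4.77 and 3.77 in EpiLC, and rose by log2 fold changes of 4.02 ± 0.36 and 3.76 ± 0.42 against mESC-2i. Without mESC-2i replicate 3 these were 5.13 ± 0.40 and 4.84 ± 0.46. The difference between the last 2 states, -0.20 ± 0.18, was not called. Mov10l1, the helicase that feeds precursors into piRNA production, and Piwil2, a PIWI protein, peaked in mESC-ser. Mov10l1 stood at 1.23, 1.67 and 1.64 CPM in mESC-2i, 11.7, 12.6 and 12.2 in the mESC-ser libraries and 5.37, 4.45 and 5.40 in EpiLC, and was called in all 3 comparisons. Piwil2 stood at 3.19, 3.67 and 4.21 CPM, then 13.3, 13.8 and 13.2, then 4.30, 3.36 and 2.26. It rose by 1.79 ± 0.15 in mESC-ser, and EpiLC overlapped mESC-2i, with a log2 fold change of -0.19 ± 0.25 that was not called.

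Fkbp6, an immunophilin needed for piRNA production, went the other way. It stood at 57.5, 65.1 and 57.5 CPM in mESC-2i, 3.71, 3.99 and 4.48 in the mESC-ser libraries and 11.5, 11.1 and 10.6 in EpiLC. Every mESC-2i library lay above every other library, and the log2 fold change was -3.94 ± 0.13 in mESC-ser (adjusted p = 1.44e-08) and -2.46 ± 0.11 in EpiLC (adjusted p = 1.85e-08). Asz1, a nuage scaffold protein, had 11, 24 and 21 counts in mESC-2i, 4, 1 and 0 in the mESC-ser libraries and 0, 0 and 2 in EpiLC. It fell by 3.81 on the log2 scale in mESC-ser (SE 0.57, adjusted p = 0.000187). With EpiLC at the floor of 3 counts per library, it was at least 4.51-fold lower there than in mESC-2i. Tdrd9, a helicase of the same pathway, was called lower in mESC-ser at -1.52 ± 0.46 although its groups overlapped (0.834 CPM in 1 mESC-2i library and 0.849 in 1 mESC-ser library), and it was not tested in EpiLC.

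The other members of the pathway moved little. Tdrd5, a Tudor protein, rose by 0.75 ± 0.21 in mESC-ser and by 0.54 ± 0.20 in EpiLC. The call in EpiLC was lost without replicate 1 of mESC-2i (0.52) or without replicate 1 (0.54) or 3 (0.48) of EpiLC, and under total-count scaling (0.20). That call was also lost without a filter on low counts (0.52), with at least 10 counts in every library (0.48) and with DESeq2 (0.61, adjusted p = 0.0783). Stk31, a Tudor-domain kinase, rose by 0.64 ± 0.20 in mESC-ser, a call lost without mESC-2i replicate 1 (0.53, adjusted p = 0.0599) or 2 (0.55, adjusted p = 0.0526). Tdrkh, which tethers PIWI proteins to mitochondria, had log2 fold changes of -0.02, 0.13 and 0.20, and Tex15, needed for transposon silencing in the testis, -0.01, -0.09 and -0.04, and none of these were called. With a correction for gene length both were called higher in EpiLC against mESC-2i (0.63 and 0.61). Of the 50-base stretches of Tdrkh, 39.1% were shared with other genes, mostly Oaz3 on the opposite strand, which had at most 1 count per library.

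Synaptonemal complex proteins zip paired chromosomes together, and HORMAD1 marks the chromosome axis. Of these 6 genes, 4 rose and none fell in mESC-ser against mESC-2i (66.7% rose, beside 25.9% of all genes), and 5 rose and none fell in EpiLC against mESC-2i (83.3% beside 32.0%). Sycp1 had 3, 5 and 5 counts in the mESC-2i libraries, and Sycp2 had 1, 7 and 13. Both passed the filter through the other states and could only be called higher against mESC-2i. Between EpiLC and mESC-ser, 3 were higher in EpiLC and 1 was lower (50.0% and 16.7%, beside 35.5% and 37.8%). Syce2, a central element protein, stood at 34.4, 33.3 and 26.8 CPM in mESC-2i and 34.4, 31.5 and 27.8 in mESC-ser. It reached 233.8, 243.1 and 235.3 CPM in EpiLC. The first 2 states overlapped fully, and Syce2 rose in EpiLC by 2.90 ± 0.11 against mESC-2i (adjusted p = 8.59e-09) and 3.02 ± 0.09 against mESC-ser (adjusted p = 7.16e-14).

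Sycp1, the transverse filament, had its peak in mESC-ser instead. It stood at 0.368, 0.417 and 0.390 CPM in mESC-2i, 6.79, 5.26 and 7.46 in the mESC-ser libraries and 2.95, 1.19 and 2.39 in EpiLC. It rose by 3.97 ± 0.28 in the mESC-ser libraries and 2.38 ± 0.43 in EpiLC, and EpiLC was below mESC-ser (-1.54 ± 0.25, adjusted p = 2.81e-05). Sycp2, an axis protein, stood at 0.123, 0.584 and 1.01 CPM in mESC-2i, and between 2.46 and 3.22 in all libraries of both other states. It rose by 2.00 ± 0.39 and 2.10 ± 0.42, or 2.66 ± 0.42 and 2.75 ± 0.44 without mESC-2i replicate 3. No call was made between mESC-ser and EpiLC, but with correction for length, alone or with GC content, EpiLC was called higher (0.68 and 1.03).

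Sycp3, the other axis protein, increased over the 3 states. It stood at 7.98, 8.34 and 8.34 CPM in mESC-2i, 16.8, 14.7 and 11.5 in the mESC-ser libraries and 34.6, 33.7 and 40.8 in EpiLC. It rose by 0.74 ± 0.17 in mESC-ser and by 2.12 ± 0.13 in EpiLC. Exons of Sycp3 overlap those of Chpt1 on the opposite strand over 660 bp, and the library kit does not mark strand. Of the 50-base stretches of Sycp3, 50.4% were shared with Chpt1. Chpt1 itself went from a mean of 15.0 CPM in mESC-2i to 8.54 in the mESC-ser libraries and 5.77 in EpiLC, the opposite direction to Sycp3. Syce1, a central element protein, stood at 9.21, 9.51 and 12.0 CPM in mESC-2i, 20.2, 21.1 and 19.6 in the mESC-ser libraries and 24.8, 21.5 and 26.8 in EpiLC, and rose by 0.92 ± 0.14 and 1.22 ± 0.15. Hormad1 was called only between EpiLC and mESC-ser (0.63 ± 0.15). That call was lost without mESC-ser replicate 3 (0.46), under total-count scaling (0.29) and with length correction (0.16). Without mESC-2i replicate 3, Hormad1 was called lower in mESC-ser (-0.60, adjusted p = 0.00717, against -0.46 and 0.058 with it). The pseudogenes Gm15529 and Gm7167 share 27.2% of its 50-base stretches.

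Meiotic cohesin holds sister chromatids together in germ cells, with REC8, STAG3 and SMC1B in place of general subunits. Rec8 fell in both other states against mESC-2i. It stood at 35.0, 35.8 and 37.3 CPM in mESC-2i, 7.21, 5.94 and 6.89 in the mESC-ser libraries and 9.13, 8.46 and 8.67 in EpiLC, with log2 fold changes of -2.48 ± 0.13 (adjusted p = 1.2e-07) and -2.06 ± 0.11 (adjusted p = 8.1e-08). Smc1b stood between 9.11 and 13.6 CPM in all libraries, and its log2 fold changes of -0.38, -0.38 and 0.05 were not called. The first 2, with adjusted p of 0.0371 and 0.0354 and no overlap of the groups, were below the fold threshold. Against mESC-2i, Smc1b was called lower in mESC-ser with length and GC correction (-0.52) and in EpiLC under total-count scaling (-0.72).

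The value of Stag3 rested on 1 library. It stood at 37.3, 35.9 and 81.9 CPM in replicates 1, 2 and 3 of mESC-2i, 69.2, 72.9 and 75.0 in the mESC-ser libraries and 42.7, 38.8 and 41.3 in EpiLC. With all libraries, its log2 fold change in mESC-ser against mESC-2i was 0.42 ± 0.26 and not called. Without mESC-2i replicate 3 it was 0.93 (adjusted p = 1.41e-06), and with replicate number as a block it was 0.51 (adjusted p = 0.0274), both called. Between EpiLC and mESC-ser, which do not use that library, Stag3 was lower in EpiLC (-0.74 ± 0.08, adjusted p = 3.78e-07), a call lost with length correction (-0.25). Against mESC-2i, EpiLC stood at -0.37 ± 0.27, and was called at -0.53 without mESC-2i replicate 2.

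The general counterparts of these subunits moved differently. Rad21, the mitotic counterpart of REC8, stood at 256.5 ± 11.3, 439.6 ± 31.3 and 84.2 ± 16.8 CPM in the order mESC-2i, mESC-ser, EpiLC (SD, n = 3). It rose by 0.72 ± 0.10 in mESC-ser, where Rec8 fell, and fell by 1.63 on the log2 scale in EpiLC. Stag1 rose by 0.57 ± 0.09 in mESC-ser and fell by 1.25 on the log2 scale in EpiLC, and Stag2 rose by 0.92 ± 0.12 and 0.59 ± 0.10. The calls of Stag1 were lost with length correction (0.10 and -0.48) and with length and GC correction, which gave -0.06 in mESC-ser. Those of Stag2 were lost with length and GC correction in mESC-ser (0.34) and with total-count scaling in EpiLC (0.25). Smc1a was not called under TMM, and under total-count scaling was called lower in EpiLC than in mESC-ser (-0.71).

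Meiotic recombination starts with breaks made by SPO11 and is repaired by DMC1, a meiotic recombinase. Both tested genes rose against mESC-2i. Dmc1 stood at 3.81, 3.42 and 6.71 CPM in mESC-2i, 8.40, 8.57 and 9.70 in the mESC-ser libraries and 16.5, 18.1 and 18.0 in EpiLC. It rose by 0.86 ± 0.24 (adjusted p = 0.0083) and 1.87 ± 0.23 (adjusted p = 2.23e-05), or by 1.26 ± 0.19 and 2.27 ± 0.17 without mESC-2i replicate 3, and no groups overlapped. Tex11, an X-linked crossover gene, stood at 3.44, 2.42 and 3.20 CPM in mESC-2i, 8.05, 9.33 and 7.64 in the mESC-ser libraries and 6.04, 5.42 and 6.53 in EpiLC. It rose by 1.42 ± 0.19 and 0.98 ± 0.21. Spo11 had 2, 2 and 16 counts in mESC-2i, 2, 1 and 2 in the mESC-ser libraries and 0, 0 and 2 in EpiLC, so it passed 3 counts only in mESC-2i replicate 3. Meiob, a single-strand binding protein, had at most 6 counts in a library, and neither gene was tested.

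Genes of meiotic entry and germ cell RNA binding had 3 different orders. Dazl, the RNA-binding protein that licenses germ cells, stood at 102.0, 90.3 and 95.1 CPM in mESC-2i, 8.89, 8.32 and 6.83 in the mESC-ser libraries and 12.1, 12.4 and 9.93 in EpiLC. It fell by 3.64 on the log2 scale in mESC-ser (SE 0.14, adjusted p = 2.51e-08) and by 3.08 in EpiLC (SE 0.12, adjusted p = 8.62e-09). The small difference between EpiLC and mESC-ser, 0.61 ± 0.15, was not called under total-count scaling (0.27) or without mESC-ser replicate 3 (0.50). Stra8, the retinoic-acid-responsive gatekeeper of meiosis, was low in EpiLC alone among the 3 states. It stood at 5.28, 4.75 and 5.46 CPM in mESC-2i, 6.86, 5.52 and 6.26 in the mESC-ser libraries and 0.268, 0.542 and 0.503 in EpiLC, with log2 fold changes of -3.51 ± 0.30 and -3.69 ± 0.29 in EpiLC. Meioc, which keeps the meiotic programme running, stood at 5.40, 3.25 and 4.44 CPM in mESC-2i, 19.3, 17.7 and 15.4 in the mESC-ser libraries and 9.53, 8.14 and 11.9 in EpiLC. It rose by 1.96 ± 0.19 and 1.17 ± 0.22 against mESC-2i.

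Germline forms of general factors include 3 of the genes that fell in mESC-ser. Rpl10l, a retrogene copy of the ribosomal protein gene Rpl10, stood at 87.6, 99.6 and 69.7 CPM in mESC-2i, 17.2, 16.8 and 16.4 in the mESC-ser libraries and 70.5, 76.9 and 82.0 in EpiLC. It fell by 2.40 on the log2 scale in mESC-ser (SE 0.14, adjusted p = 2.87e-07) and was 2.27 ± 0.09 higher in EpiLC than in mESC-ser (adjusted p = 1.09e-12). EpiLC and mESC-2i overlapped, at a log2 fold change of -0.18 ± 0.13 that was not called with TMM but was with total-count scaling (-0.52) or length correction (-0.56). Its parent Rpl10 stood at 402.9 ± 54.4, 268.6 ± 31.9 and 1052 ± 41.5 CPM (SD, n = 3), with log2 fold changes of -0.64 ± 0.13 in the mESC-ser libraries and 1.37 ± 0.12 in EpiLC against mESC-2i. The first of these was not called with length correction (-0.37) or length and GC correction (-0.48). Of the read-length stretches of Rpl10l, 7.6% were shared exactly with Gm14460, and Rpl10 was not among the genes sharing any. How reads that fit Rpl10l and another gene were counted is not stated.

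Brdt, the testis member of the BET bromodomain family, stood at 12.9, 12.9 and 15.4 CPM in mESC-2i, 2.31, 3.14 and 3.67 in the mESC-ser libraries and 0.537, 1.09 and 1.89 in EpiLC. It fell by 2.22 on the log2 scale in mESC-ser and by 3.55 in EpiLC, and EpiLC was also below mESC-ser (-1.29 ± 0.33). Taf7l, a germline TFIID subunit, stood at 10.2, 13.0 and 9.67 CPM, then 4.27, 5.01 and 5.05, then 6.04, 4.45 and 9.80, and fell by 1.25 on the log2 scale in mESC-ser. In EpiLC its groups overlapped with both other states, and its calls there (-0.73 against mESC-2i, 0.57 against mESC-ser) were lost when single libraries were left out. Against mESC-2i the value was -0.54, -0.64 and -0.48 without mESC-2i replicate 2, EpiLC replicate 1 and EpiLC replicate 2. Against mESC-ser it was 0.49 and 0.21 without mESC-ser replicate 1 and EpiLC replicate 3. The general gene Taf7 was not called in mESC-ser (-0.32 ± 0.13) and fell by 0.73 in EpiLC against mESC-2i.

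Slc25a31, the germline ADP/ATP carrier, and Tex101, a germ cell surface protein, were highest in EpiLC. Slc25a31 stood at 1.47, 1.67 and 0.858 CPM in mESC-2i, 2.38, 2.46 and 2.41 in the mESC-ser libraries and 4.97, 4.45 and 5.03 in EpiLC. It rose by 1.84 ± 0.27 in EpiLC (adjusted p = 8.46e-05), and its rise of 0.82 ± 0.28 in mESC-ser was not called without mESC-2i replicate 3 (0.55) or mESC-ser replicate 3 (0.83, adjusted p = 0.0547). Of the general carriers, Slc25a5 was also highest in EpiLC and Slc25a4 was not. Slc25a4 stood at 318.0, 170.6 and 269.5 CPM and Slc25a5 at 246.5, 308.9 and 731.1 in mESC-2i, mESC-ser and EpiLC. Tex101 stood at 0, 0.584 and 0.156 CPM in mESC-2i, 0.910, 0.764 and 0.574 in the mESC-ser libraries and 2.01, 2.60 and 3.14 in EpiLC, and rose by 3.18 ± 0.54 and 1.89 ± 0.30 in EpiLC.

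Other genes of the same pathways were called in both directions. Of 18 other piRNA pathway genes, 15 were tested, and 4 rose and 5 fell in mESC-ser against mESC-2i (26.7% and 33.3%, near the 25.9% and 30.3% of all genes). Against mESC-2i, 4 rose and 6 fell in EpiLC (26.7% and 40.0%, beside 32.0% and 37.8% of all; 1 and 7 under total-count scaling). Compared with mESC-ser, 3 were higher and 6 lower (20.0% and 40.0%, beside 35.5% and 37.8%). Ddx25, a germ cell helicase, rose by 1.49 ± 0.19 in mESC-ser, as did Piwil4 (0.98 ± 0.31) and Tdrd3 (0.84 ± 0.14). The call of Piwil4 was lost with DESeq2 (adjusted p = 0.0513) and without replicate 1 of mESC-2i (0.78) or of mESC-ser (0.89), and that of Tdrd3 with length and GC correction (0.50). Nanos3 (-1.29 ± 0.26) and Gtsf1 (-1.29 ± 0.28) fell. Gtsf1, a partner of PIWI proteins, was highest in EpiLC, 2.42 ± 0.24 above mESC-ser. Tex14, a protein of the bridges between germ cells, fell in EpiLC against mESC-2i by 2.31 on the log2 scale. Tdrd7 had 2 counts in each EpiLC library, and was at least 7.29-fold lower there than in mESC-2i.

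Of 28 other meiosis genes, 18 were tested against mESC-2i, of which 7 rose and 5 fell in mESC-ser (38.9% and 27.8%, beside 25.9% and 30.3% of all genes). In EpiLC 5 rose and 5 fell (27.8% each, beside 32.0% and 37.8%). Between EpiLC and mESC-ser, 8 of 19 were higher and 5 lower (42.1% and 26.3%, beside 35.5% and 37.8%; 7 and 8 under total-count scaling). Ctcfl, the germline relative of CTCF, had 1, 2 and 2 counts in the mESC-2i libraries and stood at 2.83 ± 0.421 CPM (SD, n = 3) in mESC-ser, at least 9.95-fold higher. Rec114 and Terb2, a break-forming and a telomere-attachment gene, were like Rpl10l lowest in mESC-ser. Rec114 stood at 13.6 ± 1.65, 1.14 ± 0.199 and 12.0 ± 1.66 CPM and Terb2 at 5.11 ± 0.710, 0.962 ± 0.150 and 5.37 ± 0.580 in mESC-2i, mESC-ser and EpiLC. Hormad2 fell by 2.15 on the log2 scale in mESC-ser. Syce3, a central element gene, was highest in EpiLC, at 4.53 ± 1.21 CPM against 0.397 ± 0.115 in mESC-ser. Mnd1 and Psmc3ip, which form 1 complex that assists DMC1, rose in EpiLC against mESC-2i by 2.16 ± 0.11 and 1.56 ± 0.10. Ythdc2, the partner of MEIOC, rose by 1.20 ± 0.18 in mESC-ser and fell by 1.70 on the log2 scale in EpiLC.

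Genes known for silencing germline genes, with the TET enzymes that oxidise methylated DNA, were also counted. Of 24 such genes, 14 rose, 3 fell and 7 were not called in mESC-ser against mESC-2i (58.3% rose and 12.5% fell, beside 25.9% and 30.3% of all genes). Against mESC-2i, 7 rose and 8 fell in EpiLC (29.2% and 33.3%, beside 32.0% and 37.8%; 4 and 9 under total-count scaling). Compared with mESC-ser, 6 of the 24 were higher (35.5% of all genes) and 13 lower (54.2%, beside 37.8%). Dnmt3a stood at 12.1 ± 1.29, 182.8 ± 15.0 and 531.3 ± 5.98 CPM in the order mESC-2i, mESC-ser, EpiLC (SD, n = 3), and Dnmt3b at 61.9 ± 4.33, 544.8 ± 49.6 and 1138 ± 27.6. Both rose at each step. Of the genes that keep methylation, Dnmt1 had log2 fold changes against mESC-2i of 0.52 in mESC-ser and -1.09 in EpiLC. Its call in mESC-ser was lost in several settings, such as total-count scaling (0.48) and length correction (0.31). Uhrf1 stood at -0.46 in mESC-ser and 0.04 in EpiLC against mESC-2i, neither called under TMM. Dnmt3l peaked in mESC-ser, at 396.1 ± 8.50 CPM against 29.6 ± 1.30 in mESC-2i and 186.7 ± 3.16 in EpiLC. Tet1 (185.5 ± 38.3, 1439 ± 101.6 and 61.6 ± 4.37 CPM) and Tet2 (59.1 ± 25.8, 236.8 ± 18.1 and 1.64 ± 0.508) also peaked in mESC-ser.

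Subunits of PRC1.6 were called in different comparisons and directions. Mga rose by 1.32 ± 0.19 in mESC-ser (1.61 ± 0.11 without mESC-2i replicate 3). It fell by 1.32 on the log2 scale in EpiLC (by 1.02 without that library), a call lost with length correction (-0.41) and with length and GC correction (-0.40). Tfdp1, which encodes DP1, rose by 1.23 ± 0.10 and fell by 1.32. Pcgf6 was called higher in EpiLC than in mESC-2i (0.67 ± 0.09), but not under total-count scaling (0.33). It was also called higher than in mESC-ser with RLE scaling (0.52) and with length correction (0.83). E2f6 was called higher in EpiLC than in mESC-ser (0.59 ± 0.12), but not under total-count scaling (0.25), where it was called lower in mESC-ser than in mESC-2i (-0.52). Max was not called under TMM in any comparison, and under total-count scaling was called lower in EpiLC than in mESC-ser (-0.57). Of the 32 germline genes tested in at least 1 comparison, 17 had their lowest mean in mESC-2i (53.1%, beside 26.2% of all such genes), 14 of them without overlap with either other state (43.8% beside 14.7%). Another 9 had their highest mean there (28.1% beside 28.5%). Genes near the floor in mESC-2i, such as Sycp1, Sycp2 and Tdrd1, were tested only through the other states. These shares are descriptions with no test. The part of these factors in the germline genes' levels was not tested.

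**Figure D4:**
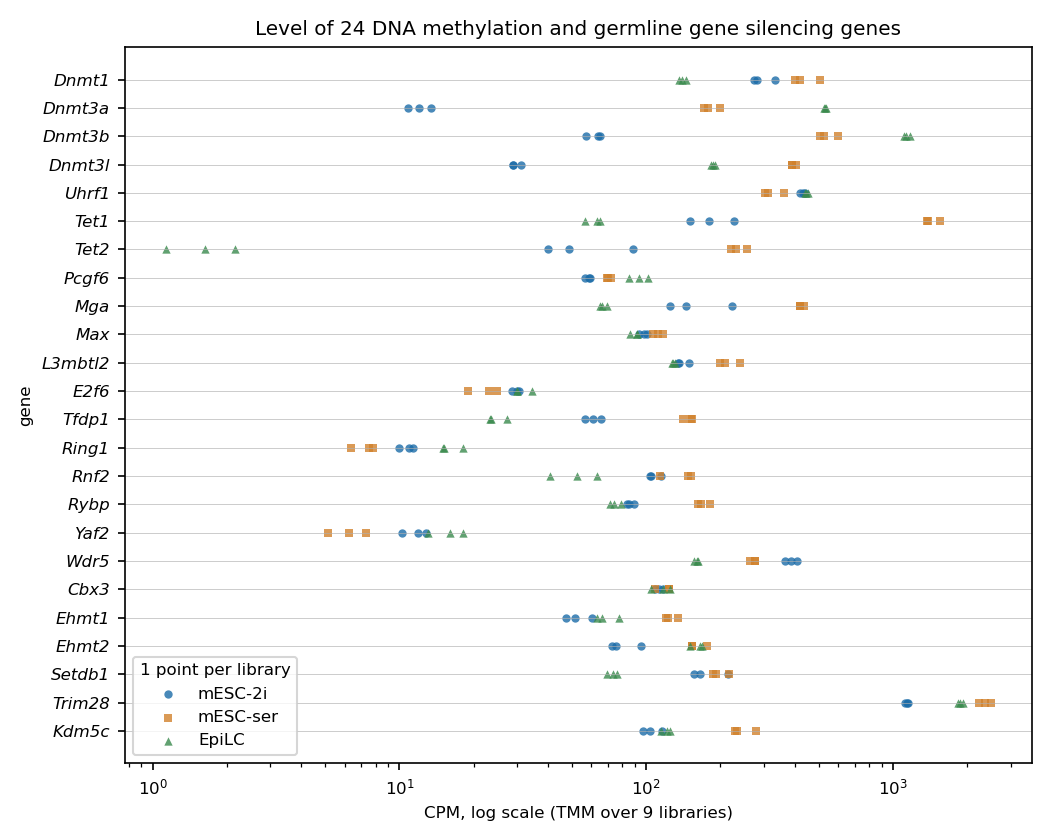
Level of 24 genes of DNA methylation and germline gene silencing in each library (x axis, CPM on a log scale), 1 point per library. Dnmt3a and Dnmt3b step up from mESC-2i to mESC-ser to EpiLC, Dnmt3l, Tet1 and Tet2 peak in mESC-ser, and Max and Cbx3 lie close together in all 3 states.

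Markers of other cell types gave the following values. Summed two-cell-like markers were led by Zscan4 genes, which are near-identical copies. Their sum stood at 1.11 to 1.40 CPM in mESC-2i, 81.8 to 124.7 in mESC-ser and 11.4 to 14.8 in EpiLC. Means of Ddx4, Sycp1, Meioc, Tdrd1, Tdrd5, Mov10l1, Stk31 and Tex11 had the same order, and the other germline genes had other orders. All 6 tested of the 8 two-cell-like genes were called higher in mESC-ser than in mESC-2i (25.9% of all genes were). The 8 genes together had 9, 15 and 18 counts in the mESC-2i libraries. Those tested passed the filter through mESC-ser, so no call in the other direction was possible. Spermatid markers stood at 5.40 to 5.85, 3.56 to 4.13 and 7.79 to 8.57 CPM over 14 genes, mostly Ldhc, and Acrv1, Akap4 and Smcp had no count in any library. Primordial germ cell markers summed to 777 to 855 CPM in mESC-2i, 325 to 345 in mESC-ser and 234 to 238 in EpiLC. Of these 9 genes, 6 fell and 1 rose in mESC-ser against mESC-2i (66.7% and 11.1%, beside 30.3% and 25.9% of all genes). Against either other state, 6 were lower and 2 higher in EpiLC, Dnd1 and Ifitm3 (66.7% and 22.2%). Of all genes, 37.8% were lower in each comparison, and 32.0% and 35.5% were higher against mESC-2i and mESC-ser. The call of Dnd1 against mESC-ser (0.51 ± 0.14) was lost under total-count scaling (0.17), with length correction (0.22), without EpiLC replicate 1 (0.39) and in other settings. Its call against mESC-2i (0.84 ± 0.18) was lost under total-count scaling (0.50). Prdm14 went from 49.2 ± 1.79 to 11.9 ± 2.27 and 0.209 ± 0.0878 CPM (SD, n = 3), and Kit from 264.2 ± 32.3 to 59.0 ± 3.03 and 3.09 ± 0.169. Primitive endoderm markers summed to 206 to 281, 147 to 167 and 9.93 to 14.8 CPM, and fibroblast markers to 44.3 to 50.8, 59.0 to 77.9 and 41.0 to 45.2. The sums hide opposite calls. Of the endoderm markers, 4 of 7 tested rose and 3 fell in mESC-ser against mESC-2i (57.1% and 42.9%, beside 25.9% and 30.3% of all genes). In EpiLC against mESC-2i, 0 of 5 rose and 4 fell (80.0%, beside 37.8%). Of 5 fibroblast markers tested there, 2 rose and 3 fell (40.0% and 60.0%, beside 32.0% and 37.8%). The part of such cells in the results above was not tested.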

How the data were processed

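Poly-A RNA of 9 libraries was read as 50 bp single-end reads from an unstranded TruSeq kit. Per the labels and the study's methods, reads were trimmed with Trim Galore 0.6.6, checked with FastQC, aligned to mm10 with HISAT2 2.2.1 and counted with featureCounts of Subread 2.0.1. The authors deposited unnormalized counts, 1 whole number per Ensembl gene and library. The annotation release, strand setting and handling of multiply aligned reads are not given in the sources used here, so overlapping genes and near-identical copies are uncertain. Columns were mapped to samples by name, the abbreviation of the serum columns being taken as serum plus LIF, and the table held no column of another sample.

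Each pair of groups was fitted with edgeR 4.0.16 (R 4.3.3, limma 3.58.1): filterByExpr, TMM, quasi-likelihood F-test, Benjamini-Hochberg adjustment over all tested genes. A gene was called at an adjusted p under 0.05 and a log2 fold change over 0.5 in size. SE is the log2 fold change divided by the square root of F. Groups with 3 counts or fewer in every library were treated as at the floor, which covers counting error only. GENCODE M21 (GRCm38, the assembly of mm10) matched 36429 of 38293 identifiers (95.1%) and gave exonic lengths. Promoter windows come from RefSeq, with the most upstream window where a gene had several. The 6 windows printed were chosen after values were seen. Shared stretches are exact 50-base matches between annotated transcripts.

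The members and gene lists were chosen with earlier results of these data known. All members, silencing factors, general counterparts and state markers could be named, and of the other piRNA and meiosis genes up to 3 called genes with the largest change per comparison and direction, with at least 20 mean counts and no overlap. Psmc3ip was added after its values were seen. Spata22 and Ankrd31 were not matched in the table. Some of the general counterparts are not reported here.

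Whether replicate numbers pair libraries was checked by correlating deviations of log2 CPM (prior count 2) from the group means. Same-numbered libraries of mESC-ser and mESC-2i correlated at 0.127, 0.18 and 0.34, all over the 0.1 used to take libraries as paired. Replicate 2 of mESC-2i and replicate 1 of mESC-ser correlated at 0.144, so the value of 0.127 does not set same-numbered libraries apart. No label says what the numbers stand for. The main fits used no replicate block, and the block was run as an alternative. Alternatives were scaling by RLE or by total counts, a fit without a filter, a minimum of 10 counts in each library, DESeq2 1.42.0, all 9 libraries in 1 fit, a replicate block, length correction (splines, 5 degrees of freedom), other fold thresholds and leaving out each replicate. A length and GC correction was added after seeing the data. The steps were tested on simulated data. The study's chromatin data are not used here.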

Additional observations from a re-analysis of the deposited data

How the results depend on the processing

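Of 1365 fold changes of the 34 genes recomputed under another setting, 1299 kept their direction and side of the threshold, or stayed uncalled, 33 lost their call, 27 gained one and 6 reversed. All 6 reversals came with the correction for length, alone or with GC content, in comparisons with EpiLC. Tex15 became 0.61 and 0.56 against mESC-2i and 0.98 and 1.28 against mESC-ser, and Tdrd5 became 0.54 and 0.51 against mESC-ser. Both corrections also moved the median of all genes against mESC-2i from -0.11 to 0.18. Among context genes, Stag2 (0.59 and 0.89), AI481877 (Shoc1, 0.53) and Ehmt1 (0.08) reversed in EpiLC against mESC-ser, and Stag1 (-0.06) in mESC-ser against mESC-2i. The cause was not tested. Meioc, Stag3 and Brdt also lost their calls in EpiLC against mESC-ser under length and GC correction (-0.14, -0.26 and -0.76). With at least 10 counts in every library, fewer genes were tested, and EpiLC against mESC-2i gave 15 called members, 6 other piRNA genes and 6 other meiosis genes. With a log2 fold change over 1, mESC-ser against mESC-2i gave 3 other piRNA genes and 9 silencing factors, EpiLC against mESC-2i 6 other piRNA genes, and EpiLC against mESC-ser 12 silencing factors.

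Replicate number as a block raised the members called in mESC-ser against mESC-2i from 24 to 25 (Stag3, 0.51) and changed no other call of a member. In EpiLC against mESC-2i and against mESC-ser the libraries share only a number (same-number correlations of 0.0221 to 0.109 and 0.017 to 0.0339), and the block left 23 and 20 members called. Genes with few counts, such as Spo11, Meiob and Tdrd9, are limited by depth.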
